A study of Homo sapiens with 9 samples.

Results

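The untreated state of H1299 was read from the 3 control libraries of a series of 9. H1299 is an established cell line grown from a human non-small cell carcinoma of the lung. The control cells were kept in serum free medium, and the other 6 libraries, from cells given siRNA against CLOCK or melatonin, were not used here. The members were the libraries whose titles give control as their group, read in the count column that ignores strand. The labels state no genetic change, time in serum free medium, passage or cell density. The series calls the 3 samples of a group independent without saying that they were separate cultures, so the spread given here is that between these samples and may be technical.

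Carcinoma cells in culture can keep, lose or replace the programme of the airway or alveolar cell they came from. Epithelial cells are held together by E-cadherin junctions and carry keratin filaments, while mesenchymal cells carry vimentin and N-cadherin under the control of the ZEB, SNAI and TWIST transcription factors. H1299 came from a lymph node metastasis. Serum is the usual source of growth factors in culture, so in serum free medium the receptors on the cell and the ligands it makes are the remaining parts of that signalling.

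The 3 libraries held 19136321, 19017290 and 18121101 counts assigned to genes. Of all reads, 1.22% to 1.36% were unmapped, 3.57% to 3.70% mapped to several places and 10.3% to 10.5% fell on the exons of more than 1 gene and were left uncounted. Protein-coding genes took 97.5%, 97.6% and 97.7% of counts, and the 16066 long non-coding RNA genes took 1.23%, 1.23% and 1.19%. The mitochondrial chromosome took 9.50% of counts in replicate 1 (95% Wilson interval 9.49% to 9.51%), 9.17% in replicate 2 (9.16% to 9.18%) and 9.24% in replicate 3 (9.22% to 9.25%). These intervals cover counting error only.

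Levels are given as TPM, that is, counts divided by the summed exon length of a gene and scaled to the same sum in each library. They are mean ± SD over 3 libraries unless each library is named. A gene is called on where it reached 1 TPM in every library, off where it stayed under 0.1 TPM in every library, and low otherwise. Of 58721 annotated genes, 15275 (26.0%) were on and 29399 had no count in any library. Of the 19940 protein-coding genes, 11832 (59.3%) were on, 3121 were low and 4987 (25%) were off. Of the genes off, 756 (15.2%) share most of their exon bases with another gene or are pseudoautosomal. Their reads may go uncounted, so off is read with less certainty for them. The same limit applies to 143 of the genes on. Among those off, 3691 had no count in any library. Whether a gene reached 1 TPM was the same in all 3 libraries for 19485 protein-coding genes and differed between libraries for 455. Just inside the limits, the lowest gene on had a mean of 1.06 TPM and the highest gene off a mean of 0.0987 TPM, while just outside a gene with a mean of 1.83 TPM missed the on call.

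**Figure D1:**
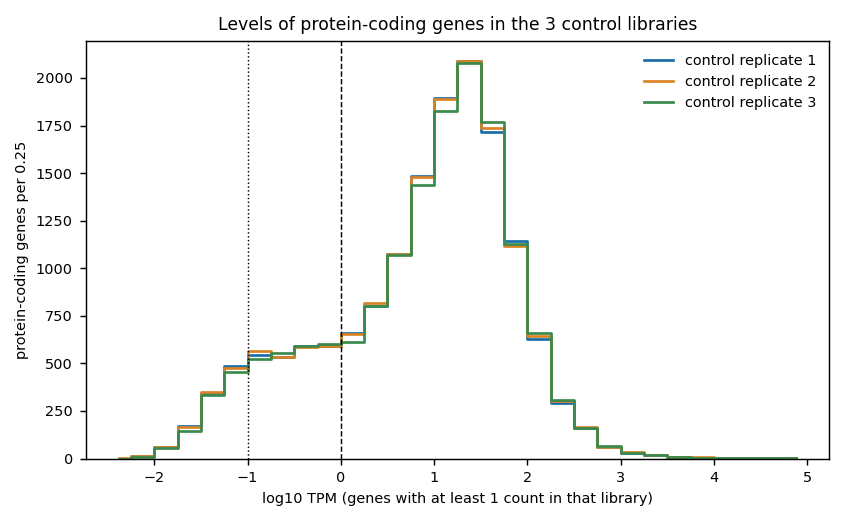
Number of protein-coding genes per 0.25 units of log10 TPM in each control library (lines), counting genes with at least 1 count in that library. The dashed and dotted vertical lines stand at 1 and 0.1 TPM. The 3 lines lie close together, with 12081, 12098 and 11987 genes at or above 1 TPM in replicates 1, 2 and 3.

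Between 69 and 75 protein-coding genes reached 1000 TPM in a library, and 67 did so in all 3. The 10 genes with most counts held 10.7%, 10.3% and 10.3% of all counts, and 770 to 790 genes were enough to hold 50%. Genes that were on had longer exons than genes that were off (medians of 5134 and 2571 bases), a wider genomic span (33458 and 14900 bases) and a lower transcript GC content (47.9% and 50.1%). A long gene needs more counts than a short gene to reach 1 TPM, so exon length was part of the call itself. These medians are a description over all 19940 genes, without a test.

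By CPM, which scales counts by the library total alone, the most abundant genes were MT-CO1, a mitochondrially encoded subunit of cytochrome c oxidase (18777 ± 219 CPM, n = 3), and EEF1A1, which brings aminoacyl-tRNA to the ribosome (17516 ± 417 CPM). The other mitochondrially encoded oxidase subunits, MT-CO3 and MT-CO2, followed at 13123 ± 221 and 12526 ± 197 CPM. Another 7 mitochondrial genes were among the 25 highest, from MT-ND4 at 10907 ± 770 CPM through MT-CYB, MT-ATP6, MT-RNR2, MT-ND2 and MT-ND5 to MT-ND1 at 4615 ± 111 CPM. The remaining 14 served translation (PABPC1, EEF2, RPS2 and RPL7), protein folding and nucleolar assembly (HSP90AA1, HSP90AB1 and NPM1), glycolysis (GAPDH, PKM and ENO1) and the cytoskeleton (ACTG1 and ACTB), with HMGA1 and SCD besides. Several of these, such as EEF1A1, RPS2 and RPL7, have near-identical processed copies, so their counts are uncertain.

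HMGA1, a chromatin protein of embryonic and transformed cells, stood at 5167, 5631 and 5152 TPM in replicates 1, 2 and 3. SCD, the desaturase that makes oleate from stearate, stood at 2016, 1884 and 2399 TPM. HMGA1 was above ACTB (2817 ± 174 TPM) in every library and SCD below it. SCD was highest in replicate 3 and HMGA1 in replicate 2. Per unit of length, the highest nuclear genes were EEF1A1 (9372 ± 232 TPM), the actin-sequestering peptide gene TMSB10 (9250 ± 838 TPM), GAPDH (6558 ± 348 TPM), HMGA1, ACTG1 (4297 ± 192 TPM), HSP90AA1 (3677 ± 116 TPM) and the ferritin light chain gene FTL (3642 ± 179 TPM). HSP90AB1, RPS2, the RNA-binding YBX1 (3121, 3294 and 3363 TPM), RPL8, ACTB, EEF2 and RPL7 completed the nuclear genes among the 25 protein-coding genes of highest TPM. The other 11 were mitochondrial, led by MT-CO2 at 58290 ± 1334 TPM and including MT-ND3 (15200 ± 1271 TPM) and MT-ND4L (6622 ± 467 TPM).

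Long non-coding RNAs were a small part of the counts, and 2184 of 16066 (13.6%) were on, against 26.0% of all annotated genes. The highest by CPM were the nuclear-speckle RNA MALAT1 (624 ± 54.0 CPM), the paraspeckle RNA NEAT1 (582 ± 62.4 CPM), NORAD, which binds Pumilio proteins (328 ± 23.2 CPM), and the snoRNA host gene GAS5 (236 ± 21.8 CPM). These genes were named after their values were seen. Short RNAs without a poly(A) tail had few counts: 7 of 10 examined, RN7SK and RN7SL1 among them, had none, and SNORD3A was the highest at 4.43 TPM. For 6 of the 10, at least 50% of the exon bases lie on another annotated gene, where reads are not counted. The labels name total RNA as the molecule and state no selection step.

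Of 25 mesenchymal genes 19 were on (76.0%, against 59.3% of all protein-coding genes; median 6.15 TPM over the list, against 4.63 TPM over all protein-coding genes). VIM, the gene of the intermediate filament vimentin (chr10:17228259-17237593, plus strand), stood at 1220, 1054 and 1112 TPM. AXL, a receptor tyrosine kinase often found on mesenchymal carcinoma cells, stood at 258, 268 and 206 TPM, and CD44, the hyaluronan receptor, at 211, 210 and 205 TPM. All 3 genes were more than 100 TPM in every library. The matrix genes FN1 and COL6A1 had 78.0 ± 1.44 and 41.9 ± 4.70 TPM, and CDH2, the gene of N-cadherin, had 29.4 ± 1.89 TPM.

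Of the transcription factors that drive the mesenchymal state, TWIST2 (32.1 ± 1.86 TPM), ZEB1 (25.5 ± 1.10 TPM) and TWIST1 (22.3 ± 2.86 TPM) were the highest, followed by PRRX1 at 11.2 TPM. SNAI1 and ZEB2 were on at 4.68 and 3.95 TPM, while SNAI2 was low at 0.609 TPM. The list was not on as a whole. The fibrillar collagen genes COL1A2 and COL3A1 were off at means of 0.0103 and 0.00810 TPM, THY1 had 0 counts in all 3 libraries, and COL1A1 was low at 0.695 TPM.

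Of 25 epithelial genes 11 were on (44.0%, median 1.01 TPM), against 59.3% of all protein-coding genes. The simple-epithelial keratin genes KRT18 and KRT8 stood at 289, 257 and 243 TPM and at 82.7, 77.3 and 64.6 TPM in replicates 1, 2 and 3. Cell junction genes of the list were on as well: CTNNB1 (67.0 ± 2.19 TPM), TJP1 (25.8 ± 0.744 TPM), DSP (25.3 ± 2.29 TPM), PKP3 (10.2 ± 1.08 TPM), JUP (5.20 ± 0.756 TPM) and OCLN (4.20 ± 0.337 TPM). CLDN4, GRHL1 and CLDN3 were on at 5.92 ± 1.05, 2.99 ± 0.301 and 2.25 ± 0.769 TPM.

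CDH1, the gene of E-cadherin (chr16:68737225-68835548, plus strand), had 0, 2 and 1 counts, which is 0.0276 ± 0.0270 TPM. EPCAM, an epithelial surface protein, was low with 6, 9 and 6 counts (0.471 ± 0.109 TPM), and CDH3, the gene of P-cadherin, was low at 0.526 ± 0.0125 TPM. GRHL2, which maintains epithelial identity, had 0 counts in every library, which allows up to 0.0877 TPM at 3 counts. The splicing factor genes of the epithelial state, ESRP1 and ESRP2, were low at 0.391 and 0.172 TPM. The keratin genes KRT7 and KRT19 were low, at 1.66, 0.856 and 1.04 TPM and at 0.567, 1.71 and 0.758 TPM. KRT18, KRT8 and junction plaque genes were thus on in the same libraries in which E-cadherin was at or under the floor of 3 counts.

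**Figure D2:**
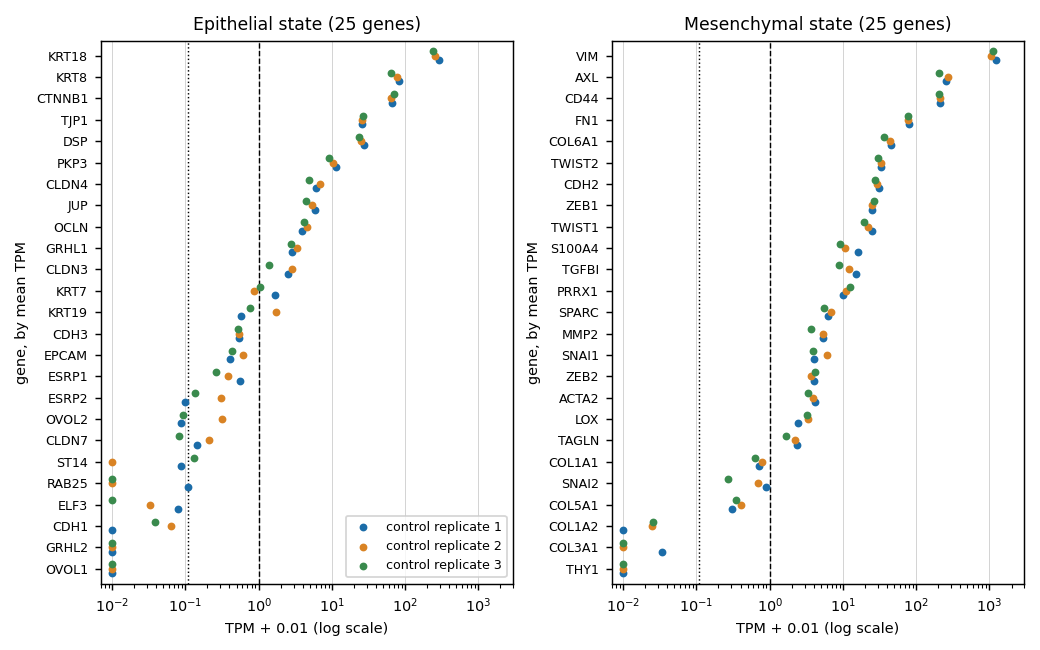
TPM of the 25 epithelial and 25 mesenchymal genes in the 3 control libraries (dots), on a log axis after adding 0.01 so that genes at 0 can be drawn. The dashed and dotted lines mark 1 and 0.1 TPM. VIM, AXL and CD44 lead the mesenchymal panel, while CDH1 and GRHL2 lie at the foot of the epithelial panel.

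Genes of the differentiated lung were mostly not on. Of 30 lung epithelial genes 8 were on (26.7%), 16 were off and the median was 0.0292 TPM. NKX2-1, the transcription factor that specifies lung epithelium, had 22, 15 and 9 counts (1.15, 0.790 and 0.504 TPM) and was low. Surfactant protein genes were at or near 0: SFTPA1 had no count, and SFTPA2 had 1, 0 and 0, SFTPB 0, 0 and 1 and SFTPC 0, 1 and 1. The highest member was ABCA3, which loads surfactant lipid into lamellar bodies (23.9, 24.6 and 20.5 TPM). It was followed by GATA6, an endoderm transcription factor, at 14.7 ± 0.709 TPM.

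The other members on were LAMP3 (8.92 ± 0.662 TPM), AGER (5.23 ± 0.325 TPM), FOXA1 (3.90 ± 0.0815 TPM), MUC1 (3.50 ± 0.226 TPM), SOX2 (2.60 ± 0.429 TPM) and FOXA2 (2.57 ± 0.632 TPM). Of the secretory and basal cell genes, SCGB1A1 and KRT5 had no count, and TP63 was low at 0.130 TPM. The forkhead factors that open endodermal chromatin were therefore on at a few TPM beside surfactant genes with at most 1 count per library.

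Promoters from RefSeq (GRCh38.p14) are shown for VIM and SFTPA2, the first an abundant mesenchymal gene and the second a lung gene at the floor. Each is the 250 bases before the RefSeq start, 5′ to 3′ on the gene's strand, with CG dinucleotides in capitals. VIM lies on the plus strand at chr10:17227991-17228240 and SFTPA2 on the minus strand at chr10:79560408-79560657.
VIM: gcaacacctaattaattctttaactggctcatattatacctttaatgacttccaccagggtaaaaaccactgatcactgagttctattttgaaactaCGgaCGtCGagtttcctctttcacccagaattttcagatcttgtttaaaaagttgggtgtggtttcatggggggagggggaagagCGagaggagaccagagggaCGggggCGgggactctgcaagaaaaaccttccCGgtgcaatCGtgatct
SFTPA2: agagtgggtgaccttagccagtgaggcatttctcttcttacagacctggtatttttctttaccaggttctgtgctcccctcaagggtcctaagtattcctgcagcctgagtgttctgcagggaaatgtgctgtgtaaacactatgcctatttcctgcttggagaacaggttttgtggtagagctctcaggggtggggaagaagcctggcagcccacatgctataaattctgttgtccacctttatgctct
The VIM window holds 8 CG dinucleotides and the SFTPA2 window 0, against a median of 17 over the 15333 promoters matched to protein-coding genes. The letters TATAAA, searched on the gene's strand in the last 60 bases, occur in the SFTPA2 window and not in the VIM window, and occur in 4.10% of all matched promoters. These are descriptions of letters, and the counts say nothing about binding or methylation there.

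Of 18 neuroendocrine genes 8 were on (44.4%, against 59.3% of all protein-coding genes), and these include REST, a repressor of neuronal genes. UCHL1, a deubiquitinase abundant in neurons and neuroendocrine cells (chr4:41256413-41268455, plus strand), stood at 1408, 1480 and 1468 TPM, above VIM in every library. ENO2, the neuronal enolase gene, stood at 114, 90.6 and 76.4 TPM. Genes of secretory granules and their release were on at lower levels: SCG2 (43.9 ± 4.15 TPM), CHGB (30.9 ± 2.77 TPM), SNAP25 (22.9 ± 0.623 TPM) and SYP (6.46 ± 0.342 TPM). The Notch ligand gene DLL3 (11.7 ± 0.866 TPM) was on together with REST (11.7 ± 1.14 TPM).

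Transcription factors of neuroendocrine cells were at or under the floor. NEUROD1 had 2, 0 and 1 counts, and INSM1 had none, which allows up to 0.188 TPM. CHGA and NCAM1 were at 0.0547 and 0.0534 TPM. Of 10 neuronal genes 5 were on, against 59.3% of all protein-coding genes. The neurofilament heavy chain gene NEFH led (81.0 ± 8.08 TPM), then MAP2 (10.4 ± 0.902 TPM), GAD1 (8.55 ± 0.440 TPM), SYN1 (3.78 ± 0.502 TPM) and SLC17A7 (1.82 ± 0.368 TPM). RBFOX3, the neuronal nuclear marker, and NEFL were low at 0.0850 and 0.262 TPM.

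Markers of other cell types were mostly low or off. None of 9 endothelial, 8 erythroid, 10 fibroblast or 8 skeletal muscle genes was on, against 59.3% of all protein-coding genes. The summed level of each list over the 3 libraries was 2.04 to 2.58 TPM for endothelial, 0.155 to 0.537 TPM for erythroid, 1.07 to 1.58 TPM for fibroblast and 0.780 to 1.03 TPM for muscle genes. PECAM1 was the highest endothelial member, at 0.810, 0.967 and 1.16 TPM, while CDH5 had no count. TTN, the gene of the giant muscle protein titin, was low at 0.443 TPM but had 280, 343 and 308 counts, and COL1A1 had 42, 45 and 34. HBA2 and HBB, PTPRC, CD3D and CD3E, APOB and MYOG had no count. Of 14 leukocyte genes the integrin gene ITGAM was on (3.81, 2.84 and 3.61 TPM), and of 9 hepatocyte genes the protease inhibitor gene SERPINA1 (16.9, 18.6 and 17.2 TPM). In bulk RNA, fewer cells of a type and less RNA per cell cannot be told apart.

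HOX genes record position along the body axis. Of 39 genes 26 were on (66.7%, near the 59.3% of all protein-coding genes), and 5 members share at least 50% of their exon bases with another gene and are read with less certainty. The highest were HOXB7 (186 ± 3.71 TPM), HOXB2 (149 ± 8.51 TPM), HOXB4 (117 ± 4.21 TPM), HOXB9 (80.0 ± 5.70 TPM), HOXC8 (46.6 ± 0.942 TPM) and HOXC10 (36.2 ± 2.14 TPM). The B cluster thus supplied the highest 4. In the A cluster HOXA3 was on at 1.72 ± 0.354 TPM and HOXA2 was low at 0.822 ± 0.291 TPM, while HOXB1 and HOXC11 had no count.

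Tumour suppressor genes were nearly all transcribed: 33 of 34 were on, against 59.3% of all protein-coding genes. CDKN2A, which encodes p16 and ARF (chr9:21967753-21995301, minus strand), was the highest at 144, 148 and 147 TPM. CDKN1B (97.2 ± 2.71 TPM), CDKN1A (88.9 ± 5.28 TPM), CDKN2B (85.4 ± 2.94 TPM), CDKN2C (72.1 ± 0.259 TPM) and the splicing regulator gene RBM10 (67.4 ± 1.88 TPM) followed. The highest 5 are all inhibitors of cyclin-dependent kinases. RB1, whose product is a target of cyclin-dependent kinases, had 52.7 ± 4.82 TPM. FHIT, which spans a fragile site, was the member not on, with 2, 6 and 5 counts (0.136 ± 0.0659 TPM).

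Of 32 oncogenes 30 were on (median 37.1 TPM), against 59.3% and a median of 4.63 TPM over all protein-coding genes. CCND1, the gene of cyclin D1, was the highest at 260, 265 and 279 TPM, followed by the survival gene MCL1 (201 ± 8.24 TPM) and MYC (155 ± 6.75 TPM). NRAS stood at 129, 127 and 142 TPM and HRAS at 41.0, 43.9 and 38.3 TPM, so that NRAS was above HRAS in every library. EZH2 (110 ± 4.77 TPM) and BCL2L1 (80.2 ± 3.60 TPM) were also among the highest 6. MYCN had no count and CCND2 was low at 0.465 TPM.

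In serum free medium all 20 cell cycle genes were on, with a median of 143 TPM, against 59.3% and 4.63 TPM over all protein-coding genes. MCM7, a subunit of the replicative helicase, had 487, 540 and 533 TPM, UBE2C 500 ± 16.7 TPM, CCNB1 443 ± 15.3 TPM, PCNA 410 ± 26.2 TPM and AURKA 286 ± 17.9 TPM. TOP2A and MKI67 stood at 220 ± 2.91 and 115 ± 5.77 TPM. Of 15 telomerase and telomere genes 14 were on, against 59.3% of all protein-coding genes. TERT, the catalytic subunit, was on with 63, 65 and 57 counts (2.27 ± 0.0810 TPM), far below the genes of its RNA-binding partners NOP10 (563 ± 42.9 TPM), NHP2 (184 ± 12.9 TPM), DKC1 (94.0 ± 5.16 TPM) and GAR1 (57.4 ± 1.98 TPM). TERF2IP and DAXX had 79.6 ± 4.09 and 74.5 ± 3.31 TPM. TERC, the RNA template, shares its exon with another annotated gene and had 0 counts, so its level cannot be read here.

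Cancer-testis antigens are genes of the male germ line that many tumours transcribe. Of 43 examined 16 were on (37.2%, against 59.3% of all protein-coding genes) and 18 had no count. MAGEA4 was the highest at 454, 457 and 479 TPM, followed by MAGEA3 (150 ± 2.53 TPM), MAGEA6 (142 ± 6.10 TPM), PRAME (106 ± 4.74 TPM), MAGEA1 (90.6 ± 4.44 TPM) and MAGEA12 (89.1 ± 0.830 TPM). The MAGEA, GAGE, CT45 and CTAG genes have near-identical copies, so reads may have been split or dropped between them. MAGEA2 and MAGEA2B were low at 1.02 ± 0.142 and 0.343 ± 0.299 TPM, and MAGEC1, MAGEC2, SSX2 and SYCP1 had no count.

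Receptor tyrosine kinases bind growth factors outside the cell and pass the signal on by phosphorylation. Of 58 genes 27 were on (46.6%, median 0.938 TPM), against 59.3% and 4.63 TPM over all protein-coding genes. Of the rest, 18 were low and 13 were off. AXL, which binds GAS6, led at 258, 268 and 206 TPM, and the ephrin receptor EPHA2 followed at 119, 129 and 119 TPM. MET, the receptor of hepatocyte growth factor, stood at 55.3, 61.5 and 62.9 TPM and EPHB4 at 47.7, 47.4 and 44.2 TPM. These 4 did not overlap with their neighbours in the order of levels. The 5 receptors RYK (30.5 ± 2.31 TPM), EGFR (22.0, 23.6 and 23.6 TPM), FGFR1 (22.5 ± 1.26 TPM), LMTK2 (22.3 ± 1.76 TPM) and MERTK (19.7 ± 1.37 TPM) came next. EGFR, FGFR1 and LMTK2 overlapped across libraries, as did LMTK2 with MERTK and MERTK with DDR1.

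DDR1, the collagen receptor (18.8 ± 0.750 TPM), ERBB2 (14.1 ± 0.939 TPM), ROR1 (14.1 ± 0.792 TPM), PTK7 (9.64 ± 0.676 TPM) and TYRO3 (9.27 ± 0.147 TPM) were on at 9 TPM or more. IGF1R and INSR, the receptors of insulin-like growth factor and insulin, stood at 7.83 ± 0.492 and 7.71 ± 0.161 TPM, which did not differ beyond their spread. FLT4 (7.58 ± 0.269 TPM), FGFR4 (6.87 ± 0.750 TPM), ERBB3 (5.34 ± 0.491 TPM) and LMTK3 (3.63 ± 0.610 TPM) followed. The lowest receptors on were EPHA5, EPHA7, EPHB2, STYK1, EPHA10, FGFR3 and AATK, from 2.68 ± 0.528 TPM in EPHA5 to 1.25 ± 0.193 TPM in AATK. All 3 members of the TAM family, AXL, MERTK and TYRO3, were on. Of the ERBB family, EGFR, ERBB2 and ERBB3 were on and ERBB4 was low at 0.474 TPM.

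Of the 13 receptors off, all but PDGFRA had at most 3 counts in each library. KIT had 1, 0 and 0 counts, RET 0, 1 and 0, ROS1 1, 0 and 0 and ALK 2, 2 and 3. PDGFRA and FLT1 were off at 0.0638 and 0.0132 TPM, and EPHA8 had no count. Several other receptors of vessel, blood and stromal cells had more than 3 counts in at least 2 libraries and were low, with KDR at 0.373, TIE1 at 0.260, FLT3 at 0.246, PDGFRB at 0.219 and CSF1R at 0.179 TPM. The vessel receptor TEK was low with 3, 3 and 1 counts (0.0814 TPM), while the vessel receptor FLT4 was on. ALK, RET and ROS1 are known as fusion partners in lung adenocarcinoma, and counts per gene cannot show a fusion. Just under the limit, ROR2 stood at 1.31, 1.55 and 0.974 TPM, and without replicate 3 the number of receptors on was 28. EPHA3 stood at 1.12, 0.875 and 0.956 TPM and EPHA4 at 0.854, 0.751 and 1.08 TPM.

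**Figure D3:**
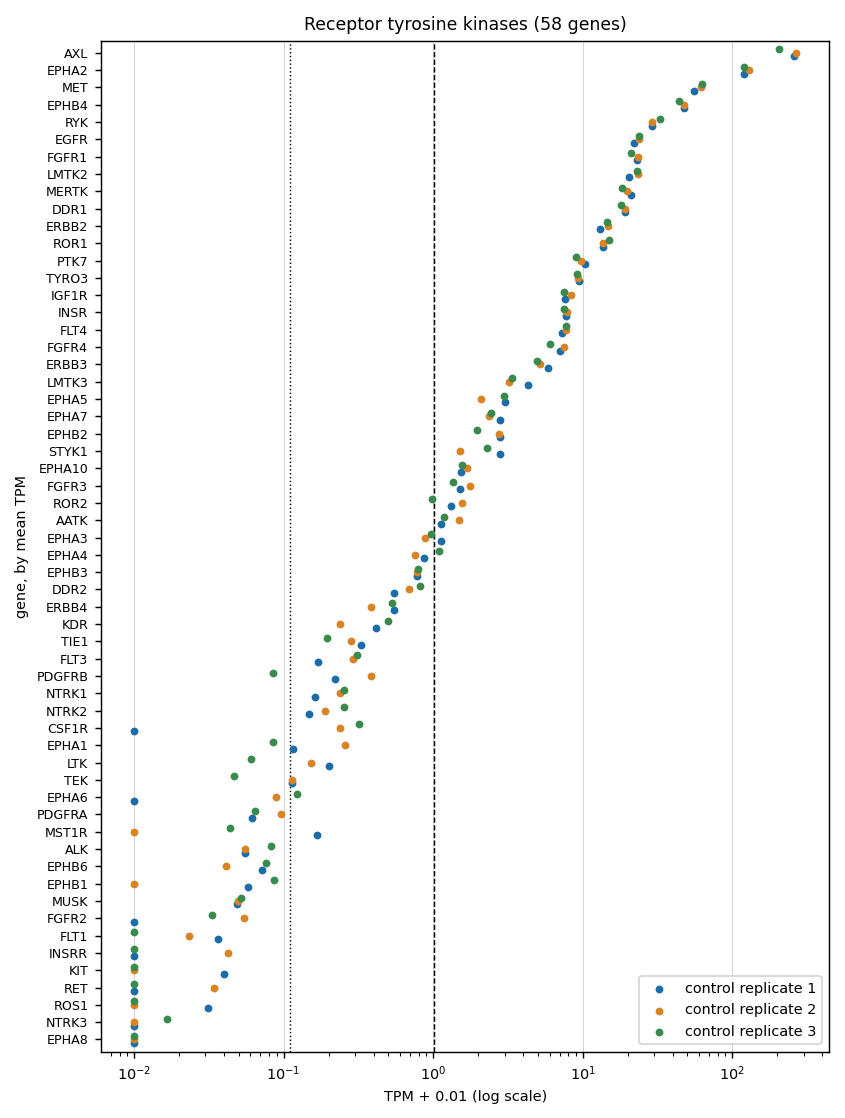
TPM of the 58 receptor tyrosine kinase genes in the 3 control libraries (dots), on a log axis after adding 0.01, ordered by mean level. The dashed and dotted lines mark 1 and 0.1 TPM. The libraries lie close together for genes above 5 TPM and spread apart where a gene has only a few counts.

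The promoters of the highest receptor on and of a receptor off are shown as a pair, again from RefSeq (GRCh38.p14), 250 bases before the start with CG in capitals. Both lie on the plus strand, AXL at chr19:41218973-41219222 and RET at chr10:43076819-43077068.
AXL: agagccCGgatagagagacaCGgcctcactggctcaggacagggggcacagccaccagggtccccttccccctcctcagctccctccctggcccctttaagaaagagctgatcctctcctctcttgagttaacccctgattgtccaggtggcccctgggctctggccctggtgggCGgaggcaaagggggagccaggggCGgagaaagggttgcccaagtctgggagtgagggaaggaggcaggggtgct
RET: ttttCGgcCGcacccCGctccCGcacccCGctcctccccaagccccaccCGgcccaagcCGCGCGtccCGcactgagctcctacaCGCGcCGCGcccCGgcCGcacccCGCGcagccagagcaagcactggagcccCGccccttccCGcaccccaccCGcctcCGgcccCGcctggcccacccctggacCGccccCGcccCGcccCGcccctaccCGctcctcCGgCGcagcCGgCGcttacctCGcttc
The AXL window holds 4 CG dinucleotides and the RET window 33, against the median of 17. Neither window holds TATAAA in its last 60 bases. In this pair the promoter with more CG dinucleotides belongs to the gene that was off, and in the pair of VIM and SFTPA2 to the gene that was on.

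Ligands of these receptors were on for 39 of 73 genes (53.4%, median 1.92 TPM), against 59.3% and 4.63 TPM over all protein-coding genes. MDK, the gene of the heparin-binding factor midkine, led at 395, 401 and 326 TPM. VEGFB had 118 ± 6.43 TPM, and TGFA, a ligand of EGFR, stood at 86.3, 84.7 and 89.4 TPM. PROS1 (783, 755 and 768 counts) and GAS6 (9.95 TPM), the ligands of the TAM receptors, were both on. AGRN and VEGFA had 22.9 ± 3.31 and 20.6 ± 3.58 TPM. Among the other EGFR ligands, HBEGF was on at 14.7, 18.3 and 18.6 TPM and BTC at 2.84 ± 0.225 TPM, AREG and EGF were low at 0.376 ± 0.109 and 0.275 ± 0.0744 TPM, and EREG had no count.

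HGF, the ligand of MET, had no count, which allows up to 0.0541 TPM. The cells thus held transcripts of both AXL and GAS6 and of both EGFR and TGFA, but of MET without HGF. INS, FGF3, FGF4, FGF8 and NTF3 had no count either. IGF1 and IGF2, at 0.00679 and 0.135 TPM, share at least 50% of their exon bases with other genes and are not read as off.

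Adaptors and feedback genes of receptor signalling were on for 26 of 29 (median 20.4 TPM), against 59.3% and 4.63 TPM over all protein-coding genes. ERRFI1, which binds and inhibits EGFR, was the highest at 655, 638 and 666 TPM. The Sprouty genes SPRY4 (163 ± 15.4 TPM) and SPRY2 (128 ± 6.12 TPM), inhibitors of RAS signalling, followed with the adaptors SHC1 (118 ± 9.86 TPM) and GRB2 (94.3 ± 4.60 TPM) and the phosphatase PTPN11 (105 ± 7.84 TPM). SOS1 had 24.7 ± 1.95 TPM. The insulin receptor substrates were split: IRS1 stood at 24.1 ± 1.37 TPM and IRS2 had 0, 2 and 1 counts (0.0209 TPM). DUSP6 was on at 33.5 TPM and DUSP4 low at 0.231 TPM. PIK3R2, at 0.0383 TPM, overlaps another gene and cannot be read.

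Immediate early genes, which serum and growth factors raise within minutes, were on for 15 of 18, against 59.3% of all protein-coding genes. FOSL1 was the highest at 767, 873 and 730 TPM, followed by MYC, JUND (129 ± 21.6 TPM), JUNB (93.3 ± 3.71 TPM), KLF6 (81.5 ± 5.23 TPM) and IER2 (70.5 ± 3.97 TPM). FOS was on at 6.83 ± 0.777 TPM and FOSB low at 0.477 ± 0.157 TPM. The FOS family was therefore led by FOSL1 in all 3 libraries.

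Receptors of the TGF-beta family were on for 12 of 14 genes and its ligands for 12 of 31, against 59.3% of all protein-coding genes. TGFB1, the ligand TGF-beta1, stood at 236, 221 and 179 TPM, above BMP6 (24.7 ± 1.23 TPM), TGFB2 (15.1 ± 0.894 TPM), GDF11 (14.7 ± 0.334 TPM), AMH (7.85 ± 1.74 TPM), BMP8B (5.85 ± 0.134 TPM) and GDF15 (5.73 ± 2.10 TPM). TGFB3 had 4.63 ± 0.239 TPM, and GDF9, GDF6, BMP4 and BMP2 were on between 3.20 and 1.49 TPM. The receptors were TGFBR2 (26.7 ± 0.899 TPM), ACVR1 (21.9 ± 0.993 TPM), ACVR1B (21.8 ± 0.722 TPM), BMPR2 (20.5 ± 0.549 TPM), TGFBR3 (12.6 ± 0.224 TPM), TGFBR1 (11.6 ± 0.474 TPM) and ENG (11.2 ± 1.13 TPM), then BMPR1A, ACVR2B, BMPR1B, ACVR2A and ACVR1C from 9.61 to 2.02 TPM. Both signalling receptors of TGF-beta were on beside its ligand. ACVRL1 was low at 0.158 TPM and AMHR2 off at 0.0158 TPM, although AMH itself was on.

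Wnt receptors were on for 12 of 15 genes, and Wnt ligands for 5 of 19 (26.3%), against 59.3% of all protein-coding genes. FZD6 (48.9 ± 3.08 TPM), FZD2 (40.8 ± 3.15 TPM), the co-receptor LRP5 (27.2 ± 1.88 TPM), FZD1 (22.6 ± 1.55 TPM), FZD7 (22.0 ± 0.632 TPM), LRP6 (18.8 ± 1.03 TPM) and LGR4 (17.0 ± 1.24 TPM) were the highest. FZD8, FZD5, FZD4, FZD3 and FZD9 were on between 10.5 and 2.49 TPM. Of the ligands, WNT5B led at 27.3, 29.7 and 34.4 TPM, and WNT16, WNT10B, WNT10A and WNT9A were on from 5.49 to 1.91 TPM. The close relative WNT5A had 1, 2 and 1 counts (0.0305 TPM), WNT1 had 1, 0 and 0 and WNT2 had 2, 0 and 3, all at or under the floor, while WNT2B was low at 0.845 TPM.

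Notch genes were on for 7 of 9, against 59.3% of all protein-coding genes. They were NOTCH2 (30.8 ± 2.51 TPM), NOTCH3 (8.90 ± 2.23 TPM) and NOTCH1 (4.60 ± 0.314 TPM) with the ligand genes JAG1 (15.7 ± 0.503 TPM), JAG2 (13.8, 14.8 and 10.9 TPM), DLL3 and DLL1 (1.33 ± 0.212 TPM). NOTCH3 was lowest in replicate 3, at 6.37 TPM against 10.6 and 9.73 TPM. Of 11 Hedgehog genes 6 were on (against 59.3% of all protein-coding genes), led by the signal transducer SMO (42.4 ± 2.09 TPM). GLI1, a target gene of the pathway, stood at 8.26, 7.02 and 6.28 TPM. SUFU, PTCH1 and the ligand gene SHH were on at 10.1 ± 0.940, 3.52 ± 0.302 and 1.87 ± 0.433 TPM. IHH and DHH were off at 0.0567 and 0.0244 TPM.

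Cytokine and interferon receptors were on for 20 of 35 genes (57.1%), near the 59.3% of all protein-coding genes. IL13RA1 (71.3 ± 5.38 TPM), OSMR (66.0 ± 4.68 TPM), IFNGR1 (50.5 ± 3.26 TPM), the shared chain gene IL6ST (49.1 ± 5.02 TPM), IFNGR2 (45.0 ± 0.764 TPM) and IFNAR1 (36.9 ± 2.24 TPM) were the highest, and LIFR and IL6R had 5.84 ± 0.403 and 1.65 ± 0.316 TPM. IFNAR2, at 0.233 TPM, shares most of its exon bases with other genes and cannot be read. Of 16 death receptors and other receptors of the tumour necrosis factor family 11 were on, against 59.3% of all protein-coding genes. TNFRSF1A, a receptor of tumour necrosis factor, led at 350, 354 and 358 TPM. TNFRSF12A (106, 143 and 125 TPM), TNFRSF10B (50.4 ± 1.33 TPM), TNFRSF10D (38.5 ± 1.64 TPM), TNFRSF21 (34.0 ± 1.36 TPM), CD40 (26.6 ± 2.07 TPM), TNFRSF10A (18.8 ± 0.421 TPM), TNFRSF25 (10.8 ± 1.08 TPM), FAS (9.87 ± 1.80 TPM), TNFRSF1B (5.73 ± 0.317 TPM) and TNFRSF11A (2.19 ± 0.180 TPM) made up the rest. Among these are both death receptors of the ligand TRAIL, TNFRSF10A and TNFRSF10B, and a decoy receptor, TNFRSF10D. Another decoy, TNFRSF10C, was low at 1.59, 1.34 and 0.854 TPM.

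Of 18 Toll-like receptors and cytosolic sensors 6 were on (33.3%): CGAS (25.2 ± 0.926 TPM), DDX58, which encodes RIG-I (18.8, 17.5 and 23.8 TPM), TMEM173, which encodes STING (17.5 ± 1.49 TPM), IFIH1 (15.9 ± 0.717 TPM), TLR6 (7.61 ± 0.822 TPM) and NOD1 (3.20 ± 0.167 TPM). TLR1, TLR2 and TLR3 were low at 0.521 ± 0.183, 0.131 ± 0.0374 and 0.775 ± 0.0628 TPM, and NOD2 and AIM2 had no count. Of 18 interferon-stimulated genes 10 were on, against 59.3% of all protein-coding genes. IFI6 (64.5 ± 7.61 TPM), ISG15 (40.5 ± 3.76 TPM) and OAS3 (11.9 ± 1.89 TPM) were ahead of IFIT1 (7.28 ± 0.921 TPM), IFIT3 (5.94 ± 0.377 TPM), IRF7 (5.66 ± 0.930 TPM), IFIT2 (5.19 ± 0.328 TPM) and IFI44 (1.80 ± 0.0766 TPM). MX2 and RSAD2 had no count, and MX1 was low at 0.168 TPM.

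Genes that make a cell visible to lymphocytes were on for 21 of 32 (65.6%), near the 59.3% of all protein-coding genes. The class I genes HLA-B (174 ± 3.93 TPM), HLA-E (70.5 ± 1.27 TPM) and HLA-C (11.3 ± 1.32 TPM), with B2M (93.7, 96.6 and 94.6 TPM), were on, and reads of these near-identical and variable genes are counted with less certainty. MICA, a ligand of NKG2D, had 103 ± 4.78 TPM and NECTIN2 90.2 ± 9.27 TPM. Class II genes were not on: HLA-DRA and HLA-DQA1 had no count, and CIITA, their activator, was low at 0.181 TPM. CD274, the gene of PD-L1, had 35 counts in each library (1.45 TPM).

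Nuclear receptors were on for 31 of 48 genes (64.6%), near the 59.3% of all protein-coding genes. NR2F6 (59.7 ± 2.11 TPM), NR2F2 (37.3 ± 2.02 TPM), NR1H2 (34.3 ± 1.07 TPM), RARG (33.9 ± 2.46 TPM), the glucocorticoid receptor gene NR3C1 (30.8 ± 2.01 TPM) and PPARD (30.4 ± 2.98 TPM) were the highest. THRA and RARA had 10.3 ± 0.891 and 7.34 ± 0.510 TPM, and THRB was low at 0.112 ± 0.0414 TPM. ESR1 was off at 0.0658 TPM and PGR low at 0.331 TPM.

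Because the series treats these cells with melatonin and with siRNA against CLOCK, the untreated level of both systems is given. Of 9 genes of melatonin reception and synthesis 1 was on, against 59.3% of all protein-coding genes. MTNR1A, the gene of the MT1 receptor (chr4:186533655-186555567, minus strand), had 2, 2 and 0 counts, which is at or under the floor of 3 counts (0.412 TPM). MTNR1B, the gene of the MT2 receptor, had no count, which allows up to 0.272 TPM, and the related GPR50 was at 0.116 ± 0.0481 TPM. NQO2, a quinone reductase that binds melatonin, stood at 26.8, 26.1 and 27.2 TPM. AANAT had 3, 2 and 3 counts (0.207 TPM) and DDC none, and ASMT lies in the pseudoautosomal region, where all 18 genes had 0 counts, CD99 and SLC25A6 among them, so that none of these can be read.

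The core clock genes were on for 17 of 19, against 59.3% of all protein-coding genes. ARNTL2 (40.3 ± 1.88 TPM), NFIL3 (38.7 ± 0.377 TPM), BHLHE41 (23.6 ± 0.825 TPM), CRY1 (21.2 ± 1.30 TPM), PER1 (19.4 ± 2.38 TPM) and NR1D2 (17.8 ± 0.971 TPM) were the highest. CLOCK stood at 10.3, 10.3 and 11.9 TPM, and its partner ARNTL at 12.4, 12.9 and 12.8 TPM. NPAS2, which can take the place of CLOCK, had 5.12 ± 0.391 TPM. ARNTL2 was thus above its paralog ARNTL in every library, and RORA and HLF were low at 0.736 and 0.162 TPM.

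Glycolytic genes were on for 24 of 33, against 59.3% of all protein-coding genes, and the 33 include isozymes of other tissues. GAPDH stood at 6854, 6645 and 6175 TPM, ENO1 at 1631 ± 97.2 TPM, TPI1 at 1537 ± 79.3 TPM, PKM at 1346 ± 18.7 TPM, LDHA at 706 ± 15.7 TPM and PGK1 at 548 ± 44.3 TPM. LDHB, the other common lactate dehydrogenase subunit, had 4.96 TPM. Of the glucose transporters, SLC2A1 was even across libraries at 77.9, 80.3 and 80.7 TPM, SLC2A3 was uneven at 74.3, 43.9 and 38.5 TPM, and SLC2A2 was off at 0.0173 ± 0.0299 TPM. ALDOA, at 2.10 TPM, shares most of its exon bases with another gene, so its level is uncertain.

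Several gene families had few or no counts. Of 386 olfactory receptor genes 335 had no count and 3 were on (0.777%), OR2W3 (8.78 TPM), OR2B6 (4.21 TPM) and OR2T8 (2.09 TPM). None of 94 keratin-associated protein genes, 21 UDP-glucuronosyltransferases or 16 leukocyte immunoglobulin-like and killer receptors was on, and the last 16 had no count in any library, although 8 of the UDP-glucuronosyltransferases share most of their exon bases with another gene. Of 39 beta-defensins 38 were off, of 55 keratins 6 were on, and of 20 type I and III interferon genes 1 was on. At the other end, 77 of 78 mitochondrial ribosomal proteins, 82 of 84 cytosolic ribosomal proteins, 39 of 40 eukaryotic initiation factors and 440 of 509 zinc finger genes with a ZNF symbol were on. These families were gathered by symbol after values had been seen.

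Surface and matrix families fell between these ends. Of 26 integrin subunits 16 were on, near the 59.3% of all protein-coding genes. The highest were ITGB1 (637 ± 29.8 TPM), ITGA3 (361 ± 32.6 TPM) and ITGA6 (113 ± 4.56 TPM), which pair as laminin receptors. Laminins were on for 9 of 12 genes, LAMB2, LAMB3, LAMC1 and LAMB1 all lying between 52.4 and 56.1 TPM. Of 44 collagens 10 were on, led by COL6A2 (55.0 ± 9.69 TPM). Of 23 cadherins with a CDH symbol 2 were on, CDH2 and CDH24 (22.4 ± 2.28 TPM). Of 44 chemokines 8 were on, led by CXCL2 (228 ± 10.8 TPM), and of 39 interleukins 3.

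Genes without a count lay next to each other in places. The longest run of neighbouring protein-coding genes with 0 counts in all 3 libraries was on chr11:48216810-57237314 and held 66 genes, 57 of them olfactory receptors. The next, on chr1:152348735-153536244, held 49 genes in and beside the epidermal differentiation complex, among them FLG2 and the LCE and SPRR genes of cornified skin. It ends with S100A6, a calcium-binding protein gene that is not particular to cornified skin, which also had 0 counts in all 3 libraries. Whether its reads could be counted was not tested, so the end of this run is uncertain. A run of 40 on chr17:40875941-41369800 held 34 keratin-associated proteins. From a count of 0 over a run, a lost segment and a silent one cannot be told apart. Coordinates are GRCh38 with GENCODE release 29.

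**Figure D4:**
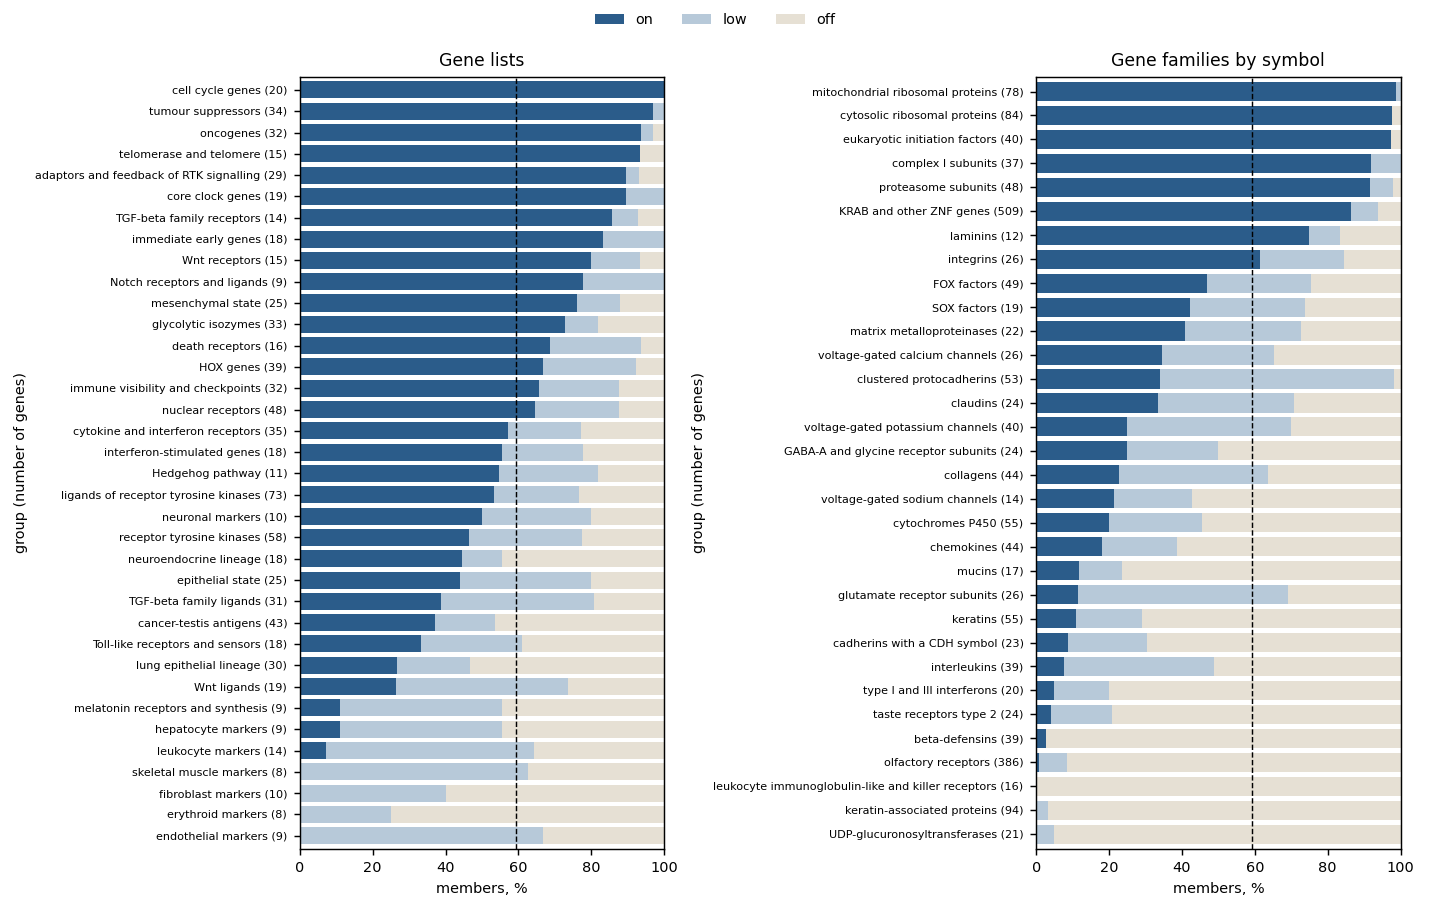
Share of members on, low and off in gene lists (left) and in families gathered by symbol (right), with the number of genes in brackets. The dashed line is the share of all protein-coding genes that were on, 59.3%. Cell cycle genes, tumour suppressors and ribosomal proteins lie at the top, and markers of other cell types, olfactory receptors and keratin-associated proteins at the foot.

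The 3 libraries lay close together. Across the 9412 protein-coding genes with a mean of at least 10 CPM, the median SD over mean was 5.59%, against 3.46% from counting alone. It was under 10% for 8232 genes (87.5%) and over 20% for 53 genes (0.563%). Pearson's r of log2(CPM + 0.5) across genes, which are not independent replicates, was 0.996 for replicates 1 and 2 and 0.994 for the other pairs. The mean chi-square per gene between libraries was 5.18 for replicates 1 and 2, 8.03 for 1 and 3 and 7.93 for 2 and 3, so no pair matched within counting noise and none was merged. The common biological coefficient of variation from edgeR was 0.0591.

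The genes that differed most between libraries were largely highest in replicate 1. SLC2A3, a high-affinity glucose transporter, varied most, with 145, 85.2 and 73.9 CPM (SD over mean 37.5%). The peptide hormone gene ADM had 15.1, 9.36 and 8.39 CPM, the lipase inhibitor gene ANGPTL4 60.4, 38.3 and 33.1 CPM and the lipid droplet gene HILPDA 19.8, 13.0 and 11.4 CPM. PFKFB4, MT-ND6, CADM4, PRR36 and GPI were likewise highest in replicate 1 and lowest in replicate 3, with SD over mean from 27.2% to 28.5%. MGLL differed from these in that replicate 3 alone was low, at 7.17 CPM against 12.6 and 12.8 CPM. The steadiest were GSTM3, NAA10, H3F3A, RNPC3 and YLPM1, with SD over mean from 0.0742% to 0.166%, below what counting alone gives.

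Several of the most variable genes are known targets of the hypoxia-inducible factors, and a list of such genes was drawn up after this was seen. Of its 27 protein-coding members with at least 10 CPM, 23 were highest in replicate 1, while 2570 of all 9412 genes were. Because the list was prompted by such genes, this count is no independent evidence. Among the 19 members left without the 8 whose SD was over 20% of the mean, 15 were highest in replicate 1, with median deviations of 0.14, -0.05 and -0.05 in replicates 1, 2 and 3. For all 27 members the median deviation from the mean of the 3 libraries on the log2 scale was 0.16 in replicate 1, -0.08 in replicate 2 and -0.09 in replicate 3. Centred within 10 equal bins of genes by transcript GC content, the medians were 0.17, -0.05 and -0.11. The members were not alike: GPI stood at 174, 122 and 106 TPM and P4HA1 at 73.8, 46.7 and 54.2 TPM, while the SD of SLC2A1, P4HA2, LDHA and PGAM1 was under 3% of the mean. The labels give no oxygen tension, density or time of harvest, and the part of these in the difference was not tested.

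**Figure D5:**
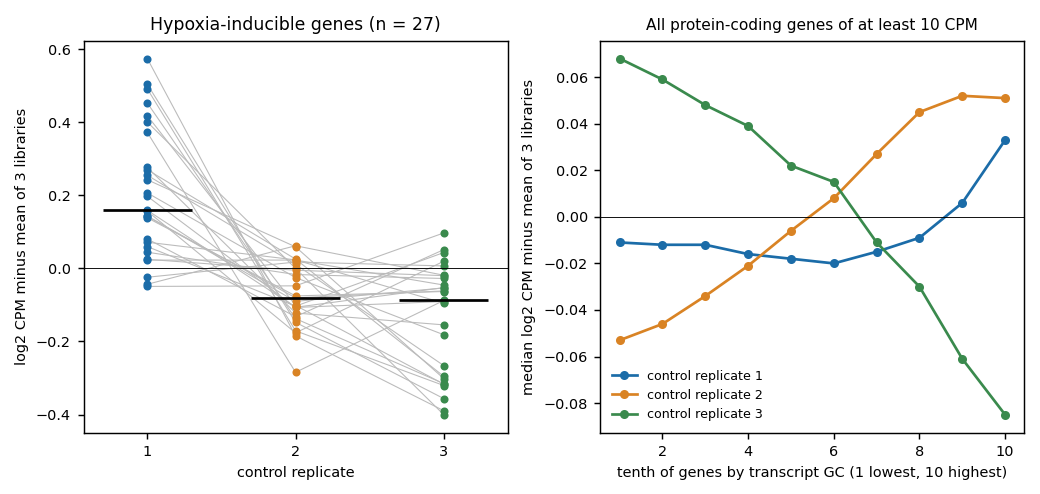
Left, deviation of log2 CPM from the mean of the 3 libraries for 27 hypoxia-inducible genes (dots, joined by gene; bars are medians). Right, the median deviation in each of 10 bins of 9412 protein-coding genes ordered by transcript GC content. Replicate 1 is highest for 23 of the 27 genes, and replicate 3 runs from 0.068 in the bin of lowest GC content to -0.085 in the bin of highest.

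The libraries also differed with GC content. In replicate 3 the median deviation was 0.068 in the bin of genes with the lowest GC content and -0.085 in the bin with the highest, and in replicate 2 it went from -0.053 to 0.051. Chromosome 19, which is rich in GC, took 6.26%, 6.35% and 5.76% of counts in replicates 1, 2 and 3. AXL, TGFB1 and NOTCH3 lie on chromosome 19 and were each lowest in replicate 3. The part of GC content in their spread was not tested.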

How the data were processed

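RNA-seq of H1299 cells was sequenced paired-end, per the labels. The authors deposited counts per gene, made with STAR 2.7.9a on GRCh38, per the submitters' processing notes; annotation and counting settings are not given in the sources used here. All 58721 identifiers matched GENCODE release 29, which was used for names and exon lengths. The deposited counts ignoring strand were taken, because both strand columns held near-equal totals. The summary lines stayed out of library sizes.

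CPM and TPM (counts per union exon length) were computed here. On is at least 1 TPM in each library, off under 0.1 TPM in each, and the floor is 3 counts. Genes with at least 50% of exon bases on another gene, or in the pseudoautosomal region, are read with less certainty. The 3 libraries held 18121101 to 19136321 counts, which sets the precision. No groups were compared. Dispersion was estimated with edgeR 4.0.16 in R 4.3.3 (TMM scaling) after tests on simulated data; other work used python 3.11.15, pandas 2.3.3 and numpy 2.4.6. Alternatives were other limits, denominators, count columns, filters and scalings, and leaving out each library.

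Named genes are the 25 highest by CPM and 25 protein-coding by TPM, all members on of a list (the 6 highest where over 12), the first 3 of each list, all receptor tyrosine kinases on, and the 10 most and 5 least variable genes. Others were named after their values were seen. The members and lists were chosen with earlier results of these data known. Of 19909 protein-coding genes looked up, 15333 (77.0%) matched a RefSeq promoter, under 80%, so promoters of genes on and off were not compared. Some genes of the lists are not reported here.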

Additional observations from a re-analysis of the deposited data

How the results depend on the processing

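Over 47 results and 456 alternative values, 438 stayed within the limits set for a change and 18 moved. All 129 values that leave out 1 library stayed within them. Those limits were wide. Receptor tyrosine kinases on numbered 22 at a limit of 2 TPM and 33 at 1 CPM, against 27, and both counted as unchanged. The protein-coding share of counts was 97.6%, against 93.7% from the first strand column alone, 93.7% from the second and 98.1% without the mitochondrial chromosome. Among lists with few members on, Wnt ligands had 8 on at a limit of 0.5 TPM and 3 at 2 TPM against 5. The biological coefficient of variation of 0.0591 was 0.0476 without replicate 3 and 0.0657 without replicate 2. Medians centred by GC content, and those without the most variable members of the hypoxia list, were added after seeing the data. No paired analysis was possible because no groups were compared and the results come from no test. Depth limits genes with few counts, and for those at 0 only the floor can be given.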
